A study of Homo sapiens with 30 samples.

Results

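Histone genes were read in 3′ tag libraries of 3 human colorectal cancer cell lines. Of 24462 gene symbols in the count files, 91 were taken as histone genes because their symbol began with HIST1H to HIST4H, H2AF, H3F3 or H1F. The 73 HIST symbols are mostly those of the clustered, replication-dependent histone genes. HIST4H4 lies on chromosome 12, apart from the other HIST genes on chromosomes 1 and 6. The other 18 are the H2AF, H3F3 and H1F symbols, called variant histone genes below. GENCODE lists HIST2H2BC, HIST2H2BA, HIST1H2APS1 and, among the variant genes, H3F3AP4 as pseudogenes, and H1FX-AS1 as an antisense RNA. They are included in the class counts, and of these HIST2H2BC was tested in Caco2 and HCT116 and H3F3AP4 in SW480. The rule reads names and no values. The libraries were made with a kit that starts from the poly(A) tail, so each HIST count comes from a polyadenylated transcript or from a run of A bases inside a transcript.

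Caco2, HCT116 and SW480 are established lines grown from colorectal tumours. There were 10 groups of 3 libraries. In Caco2, cells with a scrambled control hairpin were given vehicle or a differentiation medium, and cells with a hairpin against SETDB1 were sorted into a KRT20-negative and a KRT20-positive fraction. In HCT116 and SW480, cells with the SETDB1 hairpin were sorted into KRT-negative and KRT-positive fractions, and unsorted cells were the third group. SETDB1 encodes an enzyme that methylates histone H3 and silences genes, and KRT20 is a keratin of the mature colon epithelium. All cells were transduced with retrovirus and kept under puromycin, per the labels' protocols. The differentiation medium held the PPARG ligand troglitazone (10 uM) and 1α,25-dihydroxyvitamin D3 (25 nM) from 3 days after transduction. The labels do not give the medium of the SETDB1-hairpin and unsorted cells, the hairpin carried by the unsorted cells, or whether replicates were separate cultures. Hairpin and sort therefore cannot be told apart in a comparison of a sorted fraction with scramble or unsorted cells, and p-values measure the spread between these libraries only.

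Replication-dependent histone genes mostly lie in clusters, lack introns and are transcribed when DNA is copied. Their messenger RNAs usually end just after a short stem-loop, which is bound by the protein SLBP and takes the place of a poly(A) tail. Some of the same genes also carry a polyadenylation signal further downstream, and cells that have left the cell cycle are known to use it more. Variant histone genes mostly lie outside these clusters, are expressed outside DNA replication as well, and mostly make ordinary polyadenylated messages.

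The 16-base stem-loop was searched with a consensus pattern in the GENCODE 29 transcripts (GRCh38), and the signals AATAAA and ATTAAA in the last 40 bases of each transcript. A stem-loop was found in 33 of 73 HIST genes and a signal in 24 of 73 (32.9%). Of the 18 variant genes, 15 had a signal (83.3%) and H2AFX alone had a stem-loop. A missing match says only that the annotated transcript does not hold these letters. HIST1H4C, HIST1H1C and HIST1H2BK, the HIST genes with the most counts, had neither in their annotated transcript. The lines below show the stem-loop in capitals with up to 7 bases on each side, 5′ to 3′, for genes whose levels are described here. The annotated transcript of HIST2H2BE runs on for 1729 bases after the stem-loop and that of H2AFX for 821, whereas HIST1H2BD, HIST2H2AA4 and HIST1H4J end 39, 35 and 6 bases after it.
HIST2H2BE: ctccaaaGGCTCTTTTCAGAGCCacccacc
HIST2H2AA4: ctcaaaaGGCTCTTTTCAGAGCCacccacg
HIST1H2BD: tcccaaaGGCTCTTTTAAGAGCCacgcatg
HIST1H2AI: aaccaaaGGCTCTTTTCAGAGCCacctaca
HIST1H4J: aataaaaGGCCCTTTTCAGGGCCacccta
H2AFX: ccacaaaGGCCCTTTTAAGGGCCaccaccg
The H2A and H2B lines share the outer stem letters GGCTCT, and HIST1H4J and H2AFX share GGCCCT.

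RefSeq start regions (GRCh38.p14, 250 bases before to 50 after the start) were matched for 74 of the 91 genes. The octamer ATTTGCAT (reverse ATGCAAAT), searched on both strands, is the site of the POU2F1 family known from H2B promoters. It stood in 492 of all 27305 start regions (1.8%), in 9 of 13 H2B genes, 11 of 16 H2A genes and 0 of 13 H4 genes. CCAAT or its reverse ATTGG stood in 35.7% of all start regions, in 13 of 13 H2B genes and in 3 of 13 H4 genes. The 3 H2B genes with the highest levels are shown by their 250 bases before the start, 5′ to 3′ on the gene's strand, with the octamer in capitals. They lie at chr6:27146859-27147108 (minus strand), chr1:149886683-149886932 (minus strand) and chr6:26157871-26158120 (plus strand). HIST1H2BK and HIST2H2BE each held 1 octamer, ending 38 bases before the start in both, and HIST1H2BD held none.
HIST1H2BK: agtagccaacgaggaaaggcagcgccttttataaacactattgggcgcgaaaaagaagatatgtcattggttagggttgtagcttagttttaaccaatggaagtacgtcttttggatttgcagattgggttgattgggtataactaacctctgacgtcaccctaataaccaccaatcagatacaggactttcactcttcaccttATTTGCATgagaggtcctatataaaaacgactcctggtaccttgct
HIST2H2BE: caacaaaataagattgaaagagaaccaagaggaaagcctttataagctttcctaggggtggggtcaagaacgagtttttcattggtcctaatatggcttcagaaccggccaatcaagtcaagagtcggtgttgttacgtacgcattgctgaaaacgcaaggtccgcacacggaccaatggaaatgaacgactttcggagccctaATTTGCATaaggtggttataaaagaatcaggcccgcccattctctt
HIST1H2BD: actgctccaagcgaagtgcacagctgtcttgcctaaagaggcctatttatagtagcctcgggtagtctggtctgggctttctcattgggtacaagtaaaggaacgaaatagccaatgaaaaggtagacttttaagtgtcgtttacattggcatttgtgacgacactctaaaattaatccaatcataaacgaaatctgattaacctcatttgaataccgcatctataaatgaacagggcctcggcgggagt

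Library depth ran from 5349737 to 10221854 counts, so that 3 counts, the upper limit a count of 0 allows, stood for 0.293 to 0.561 CPM, the usual scaling of counts by library size, here with TMM factors for all gene levels and raw totals for this limit. SETDB1, the hairpin's target, had 28.9 to 37.9 CPM in the 6 scramble libraries of Caco2 and 19.5 to 26.1 in the 6 hairpin libraries. In HCT116 the KRT-positive replicates 2 and 3 (19.9 and 31.3 CPM) exceeded unsorted replicate 3 (16.8 CPM). In SW480 the library labelled KRT-negative replicate 1 (36.1 CPM) exceeded all 3 unsorted libraries (15.0 to 35.9 CPM). KRT20 followed the sort in Caco2 (25.9 to 37.8 CPM in the positive and 1.03 to 1.76 in the negative fraction) and SW480 (44.4 to 75.1 against 0 to 0.667 CPM), and was at 0 in 5 of 6 sorted HCT116 libraries, whose labels say KRT. Epithelial markers were present in each line, except that VIL1 was at 0 in HCT116 and in 5 of 9 SW480 libraries and CDX1 was at 0 in HCT116 and SW480 and at most 0.304 CPM in Caco2. Summed over 9 fibroblast markers, Caco2 KRT20-negative replicate 3 had 602.5 CPM, against at most 57.9 in the other 11 Caco2 libraries. PTPRC, the pan-leukocyte gene, was at 0 in each library of 4 of the 10 groups and reached 13.1 CPM in HCT116 unsorted replicate 2. Other genes of the 7 leukocyte markers were higher. LYZ had 44.7 to 72.2 CPM in Caco2, CD68 up to 42.9 in HCT116 KRT-negative and CD74 up to 27.2 in SW480 unsorted cells. The 7 markers summed to between 2.99 CPM (an HCT116 unsorted library) and 110 CPM (a Caco2 KRT20-positive library). For each library, the log2 deviation from the gene's mean over the line was regressed on GC content of the transcript. These slopes, relative to the average of the line, ran from -0.16 to 0.26 log2 units per 10% GC among HCT116 libraries. They ran from -0.27 to 0.16 in SW480, against -0.04 to 0.07 in Caco2.

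Most of the HIST signal came from few genes. Averaged over the 30 libraries, 7 of 73 HIST genes reached 10 CPM, 17 reached 2 CPM, 50 stayed under 1 CPM and 4 were at 0 in each library. Of the 18 variant genes, 11 had at least 10 CPM and 1 was at 0 throughout. After the filter on low counts, which takes the size of the groups but not their labels into account, the tests covered 26 HIST and 11 variant genes of Caco2, then 17 and 11 of HCT116, and 24 and 12 of SW480. Because a 3′ tag is read about once per transcript whatever its length, CPM was used to compare genes.

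The summed HIST level was lower in the hairpin fractions of Caco2 and HCT116. In Caco2 it was 1242 CPM ± 44.9 (SD, n = 3) with vehicle and 1142 ± 33.2 in differentiation medium, and 869 ± 51.2 and 932 ± 42.1 in the KRT20-negative and KRT20-positive fractions. In HCT116 it was 1199 ± 287 CPM in unsorted cells, 632 ± 123 in KRT-negative and 476 ± 61.4 in KRT-positive cells. In SW480 it was 659 ± 76.2, 755 ± 66.2 and 509 ± 65.5 CPM in the same order. In Caco2 and HCT116 the hairpin libraries did not overlap the scramble or unsorted libraries in this sum, and in SW480 the KRT-negative libraries did. Without HIST1H4C, described next, the direction differed in HCT116. The other 72 HIST genes summed to 182 CPM ± 54.8 in unsorted, 234 ± 53.4 in KRT-negative and 261 ± 12.6 in KRT-positive HCT116 cells, where the KRT-positive libraries (252 to 275) lay above the unsorted ones (120 to 224). In SW480 they summed to 356 ± 42.2, 561 ± 36.0 and 399 ± 54.1 CPM, with the KRT-negative libraries above all others. In Caco2 they summed to 406 ± 13.9 with vehicle, 314 ± 10.1 in differentiation medium, 340 ± 25.5 in KRT20-negative and 375 ± 19.0 CPM in KRT20-positive cells, highest with vehicle and lowest in the medium by mean. HIST genes held from 12.7% (SW480 unsorted) to 23.2% (Caco2 vehicle) of all histone counts by group mean. The variant sum was 4106 ± 121, 4511 ± 49.9, 3927 ± 4.33 and 3913 ± 77.0 CPM in Caco2 in the order above. It was 5692 ± 995, 4048 ± 414 and 2999 ± 164 CPM in HCT116 and 4515 ± 201, 4275 ± 404 and 3284 ± 265 CPM in SW480, for unsorted, KRT-negative and KRT-positive cells. These sums are descriptions and were not tested.

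**Figure D1:**
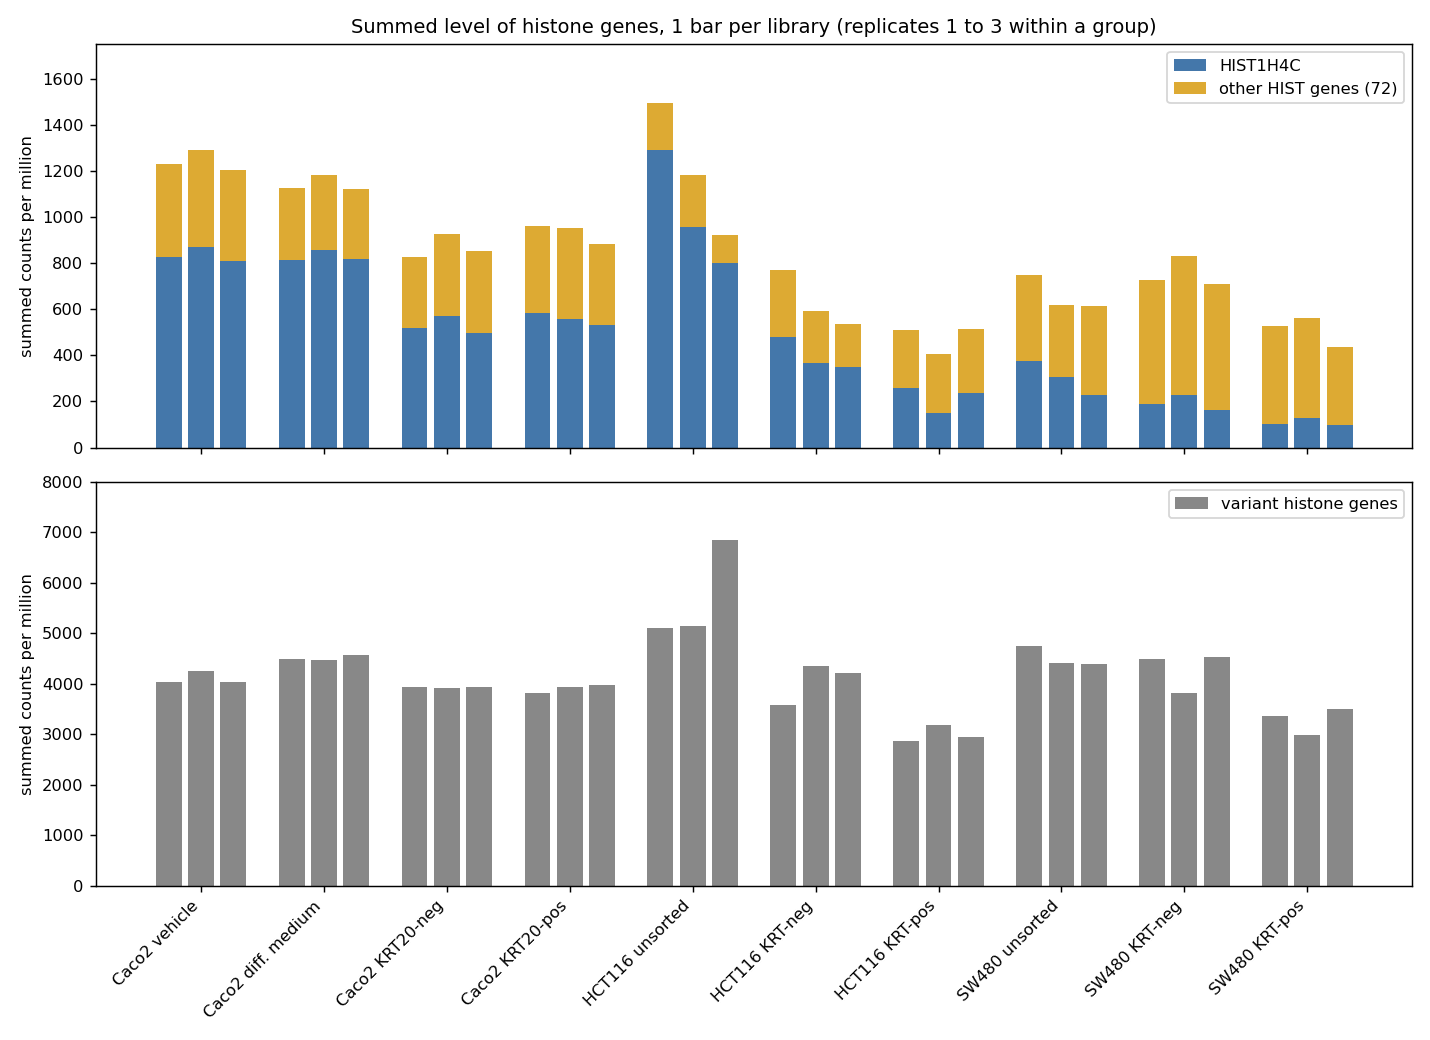
Summed CPM of histone genes, with 1 bar per library. The upper panel splits the 73 HIST genes into HIST1H4C and the other 72, the lower panel gives the 18 variant genes. HIST1H4C makes up 67.3% of the HIST sum in Caco2 vehicle cells, 84.9% in HCT116 unsorted cells and 21.6% in SW480 KRT-positive cells.

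HIST1H4C, which encodes the core histone H4, had the highest level of the HIST genes in each group. It lies at chr6:26103876-26104310 on the plus strand (GRCh38). In Caco2 the vehicle libraries had 824, 871 and 811 CPM and the differentiation medium libraries 812, 857 and 816 CPM. The KRT20-negative libraries had 517, 571 and 498 CPM and the KRT20-positive libraries 583, 559 and 530 CPM, so that all 6 hairpin libraries were below all 6 scramble libraries. HIST1H4C fell by 0.66 log2 units (SE 0.07, edgeR adjusted p = 6.2e-08) in KRT20-negative and by 0.58 (SE 0.07, edgeR adjusted p = 3.53e-07) in KRT20-positive cells against vehicle. Against differentiation medium the values were -0.65 and -0.57 (edgeR adjusted p = 8.38e-08 and 6.28e-07). All these comparisons of hairpin cells share their control or hairpin libraries. The medium itself did not change it measurably (log2 -0.01, SE 0.07, edgeR adjusted p = 0.925).

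HIST1H4C was also lower in the sorted fractions of the other lines. HCT116 unsorted libraries had 1292, 958 and 802 CPM, KRT-negative libraries 480, 365 and 350, and KRT-positive libraries 258, 151 and 238. The 3 groups did not overlap, and both fractions were called against unsorted cells (log2 -1.35, SE 0.25, edgeR adjusted p = 0.0043, and log2 -2.24, SE 0.26, edgeR adjusted p = 7.32e-05). The step between the fractions (log2 -0.89) was not called (edgeR adjusted p = 0.14). SW480 unsorted libraries had 374, 308 and 227 CPM, KRT-negative libraries 189, 228 and 164, and KRT-positive libraries 104, 127 and 99.1. The KRT-positive fall was called (log2 -1.47, SE 0.26, edgeR adjusted p = 0.0061) and the KRT-negative difference was not (log2 -0.64, edgeR adjusted p = 0.282), with KRT-negative replicate 2 just above unsorted replicate 3. The share of HIST1H4C in the HIST sum fell with it, from 84.9% ± 3.28 in HCT116 unsorted cells to 63.2% ± 2.01 and 44.7% ± 6.87, and from 45.7% ± 7.53 in SW480 unsorted cells to 25.6% ± 2.17 and 21.6% ± 1.69 (SD, n = 3, KRT-negative and KRT-positive). Fits without 1 library were not recorded for the KRT20-positive call against vehicle. The other calls named in these paragraphs on HIST1H4C held when any 1 library of the line was left out, with edgeR adjusted p up to 0.0362.

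**Figure D2:**
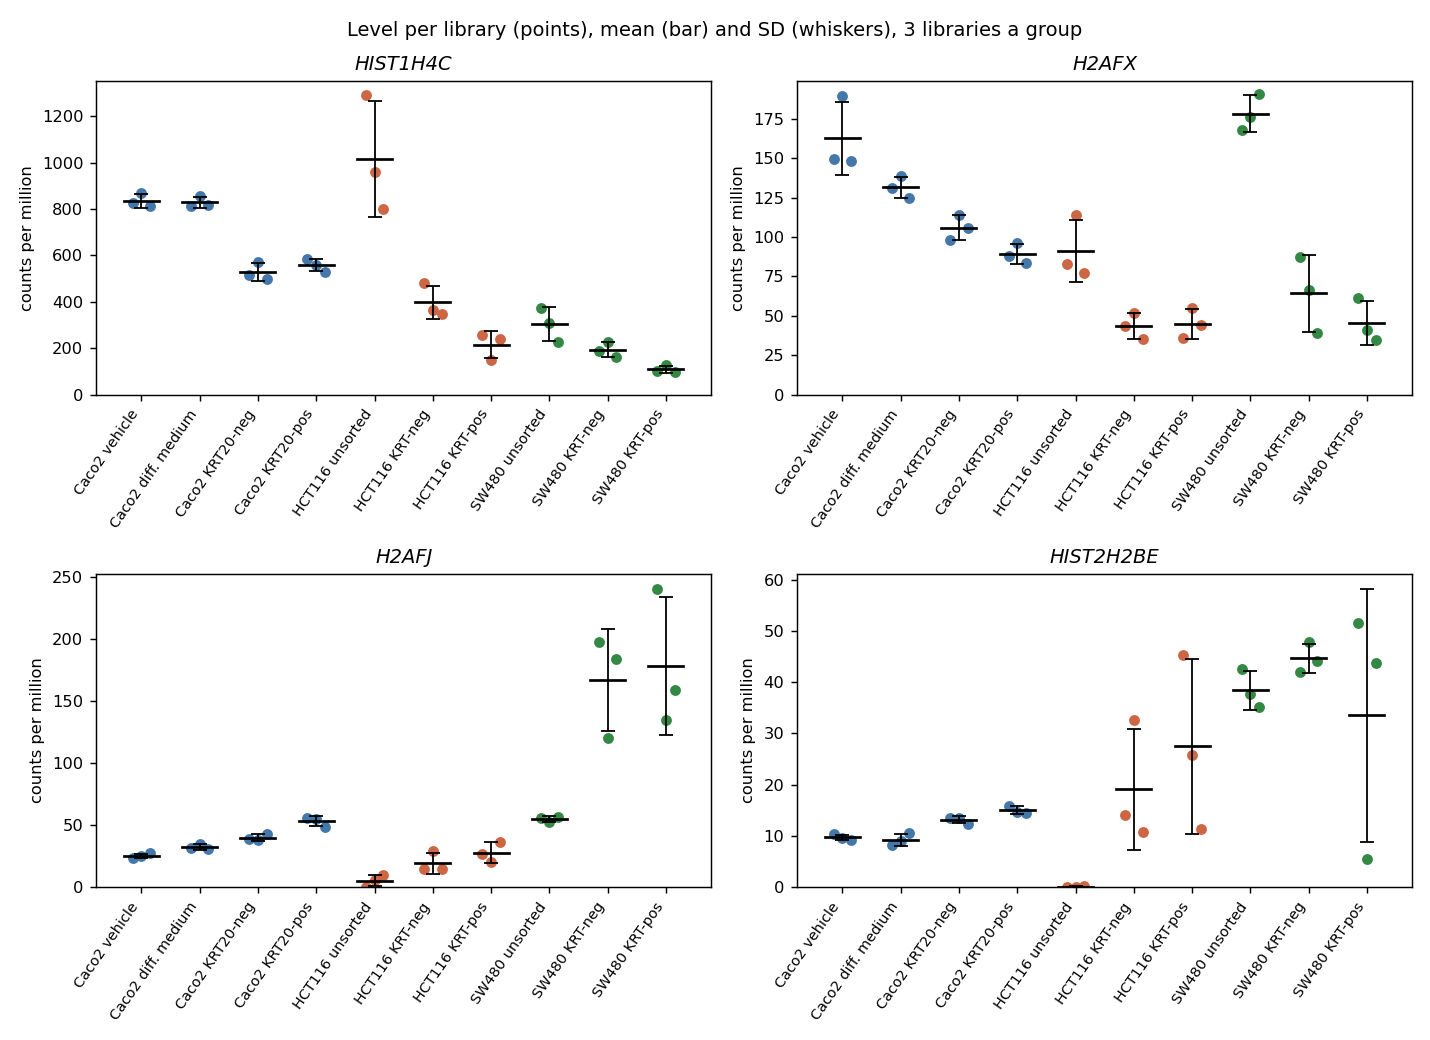
CPM of HIST1H4C, H2AFX, H2AFJ and HIST2H2BE in each library (points), with the group mean (bar) and SD (whiskers), n = 3 a group. HIST1H4C and H2AFX are lower and H2AFJ higher by group mean in the hairpin fractions of each line, and HIST2H2BE is near 0 in HCT116 unsorted cells alone.

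HIST2H2BE, an H2B gene of the chromosome 1 cluster with a long annotated transcript past its stem-loop, had the largest difference among the histone genes. In HCT116 unsorted libraries it had 0, 0.144 and 0.213 CPM, or 2 counts in all. KRT-negative libraries had 14.03, 32.6 and 10.7 CPM (516 counts), and KRT-positive libraries 45.4, 25.8 and 11.4 CPM (808 counts). The groups did not overlap, and the ratio of count rates was 174 (95% interval 47.9 to 1440, counting error only) for KRT-negative and 280 (77.3 to 2320) for KRT-positive cells. Both were called (edgeR adjusted p = 0.00128 and 0.000578), also without any 1 library (edgeR adjusted p up to 0.0067).

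The same gene moved little elsewhere. Caco2 vehicle libraries had 10.3, 9.68 and 9.21 CPM, differentiation medium libraries 8.25, 9.06 and 10.6, KRT20-negative libraries 13.5, 13.6 and 12.4, and KRT20-positive libraries 15.9, 14.7 and 14.5. Both hairpin fractions were above both scramble groups with no overlap. HIST2H2BE rose in the KRT20-positive fraction by 0.63 log2 units against vehicle (SE 0.16, edgeR adjusted p = 0.00339) and by 0.70 against differentiation medium (SE 0.16, edgeR adjusted p = 0.0016). The KRT20-negative rise was 0.43 against vehicle (edgeR adjusted p = 0.0398), and this call was lost in 6 of 12 fits that left out 1 library, namely vehicle replicates 1, 2 and 3, KRT20-negative replicates 1 and 2 and KRT20-positive replicate 3 (edgeR adjusted p up to 0.116). Against differentiation medium it was 0.50 (edgeR adjusted p = 0.0169, and 0.0875 without differentiation medium replicate 1). SW480 had 42.6, 37.6 and 35.1 CPM unsorted, 42.1, 47.8 and 44.1 in KRT-negative and 51.6, 5.43 and 43.7 in KRT-positive libraries, and neither fraction was called (edgeR adjusted p = 0.983 and 0.946).

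Of the other H2B genes, HIST1H2BK was lower with the medium in Caco2. Its vehicle libraries had 110, 120 and 103 CPM and its differentiation medium libraries 78.3, 78.5 and 73.8 CPM, with no overlap. It fell by 0.53 log2 units (SE 0.10, edgeR adjusted p = 0.000565). The KRT20-negative (89.0, 107 and 120 CPM) and KRT20-positive libraries (122, 119 and 102 CPM) overlapped those with vehicle and were above those in differentiation medium (log2 0.46 and 0.58, edgeR adjusted p = 0.000998 and 0.000104). These 3 calls held without any 1 library, and neither fraction was called against vehicle (edgeR adjusted p = 0.616 and 0.751). The last 75 bases of HIST1H2BK also occur in H2BFS, so tags may be divided between them. In HCT116 the unsorted libraries had 7.64, 11.1 and 3.20 CPM, the KRT-negative libraries 39.99, 29.8 and 17.4, and the KRT-positive libraries 16.4, 28.3 and 64.2. The KRT-positive rise was called (log2 2.30, SE 0.67, edgeR adjusted p = 0.0401), and was lost without KRT-positive replicate 2 (0.0646) or 3 (0.251) or unsorted replicate 1 (0.092) or 3 (0.126). The KRT-negative difference was not called (log2 1.98, edgeR adjusted p = 0.105).

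HIST1H2BD, another H2B gene with a stem-loop and a signal close behind it, had 0.325, 4.17 and 12.2 CPM in HCT116 unsorted libraries. It had 79.4, 12.9 and 38.3 CPM in KRT-negative and 49.3, 42.1 and 33.4 CPM in KRT-positive libraries, all above the unsorted ones. The KRT-positive rise was called (log2 2.92, SE 0.86, edgeR adjusted p = 0.0426) and the KRT-negative difference was not (log2 2.99, SE 0.86, edgeR adjusted p = 0.0559). The KRT-positive call was lost without KRT-positive replicate 1, 2 or 3, unsorted replicate 1 or 2, or KRT-negative replicate 3 (edgeR adjusted p = 0.0666 to 0.122). In Caco2 HIST1H2BD was 14.1 CPM with vehicle, 12.6 in differentiation medium, 16.6 in KRT20-negative and 19.9 in KRT20-positive cells. The KRT20-positive rise was called against differentiation medium (log2 0.66, SE 0.17, edgeR adjusted p = 0.00363) and against vehicle (log2 0.50, edgeR adjusted p = 0.021), the latter not without vehicle replicate 2 (0.138) or KRT20-positive replicate 1 (0.0619) or 3 (0.128). In SW480 it was 18.6 CPM unsorted, 46.5 in KRT-negative and 17.5 in KRT-positive cells, with no call against unsorted cells (edgeR adjusted p = 0.382 and 0.977).

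Other H2B genes had low counts. In Caco2 HIST1H2BF fell from 2.69 CPM with vehicle to 0.688 in KRT20-negative cells (log2 -1.91, SE 0.45, edgeR adjusted p = 0.00187). HIST1H2BC fell from 2.89 CPM to 0.893 in KRT20-positive cells (log2 -1.68, SE 0.45, edgeR adjusted p = 0.00493).

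The H2A genes HIST2H2AA3 and HIST2H2AA4 are copies on chromosome 1, and the last 75 bases of each occur in the other, so their tags cannot be assigned with certainty. HIST2H2AA4 had 1.69 to 2.34 times the level of HIST2H2AA3 in each library, and the values below are their sum. It was 22.1 CPM ± 3.40 with vehicle, 16.6 ± 3.89 in differentiation medium, 23.3 ± 5.74 in KRT20-negative and 31.7 ± 1.19 in KRT20-positive Caco2 cells (SD, n = 3). In HCT116 it was 16.6 ± 8.79 CPM unsorted, 44.3 ± 12.9 in KRT-negative and 56.8 ± 5.08 in KRT-positive cells, with the highest unsorted library (26.4) below the lowest sorted library (35.6). In SW480 it was 73.7 ± 28.3, 161 ± 31.5 and 131 ± 19.4 CPM, again without overlap between the unsorted (47.6 to 104) and either sorted group (109 to 195). By gene, HIST2H2AA4 rose in Caco2 KRT20-positive cells against differentiation medium (log2 0.96, SE 0.19, edgeR adjusted p = 0.00032), as did HIST2H2AA3 (log2 0.92, SE 0.24, edgeR adjusted p = 0.00466). In HCT116 and SW480 neither fraction was called for HIST2H2AA4 (edgeR adjusted p = 0.0542 to 0.244). Its calls in KRT20-positive cells against vehicle (log2 0.49, edgeR adjusted p = 0.0374) and in KRT20-negative cells against differentiation medium (log2 0.51, edgeR adjusted p = 0.0365) were lost in 5 and 4 of 12 fits without 1 library (edgeR adjusted p up to 0.172 and 0.236). The former were the fits without vehicle replicate 2 or 3 or any KRT20-positive library. The latter were those without differentiation medium replicate 1, KRT20-negative replicate 2 or 3 or KRT20-positive replicate 3.

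**Figure D3:**
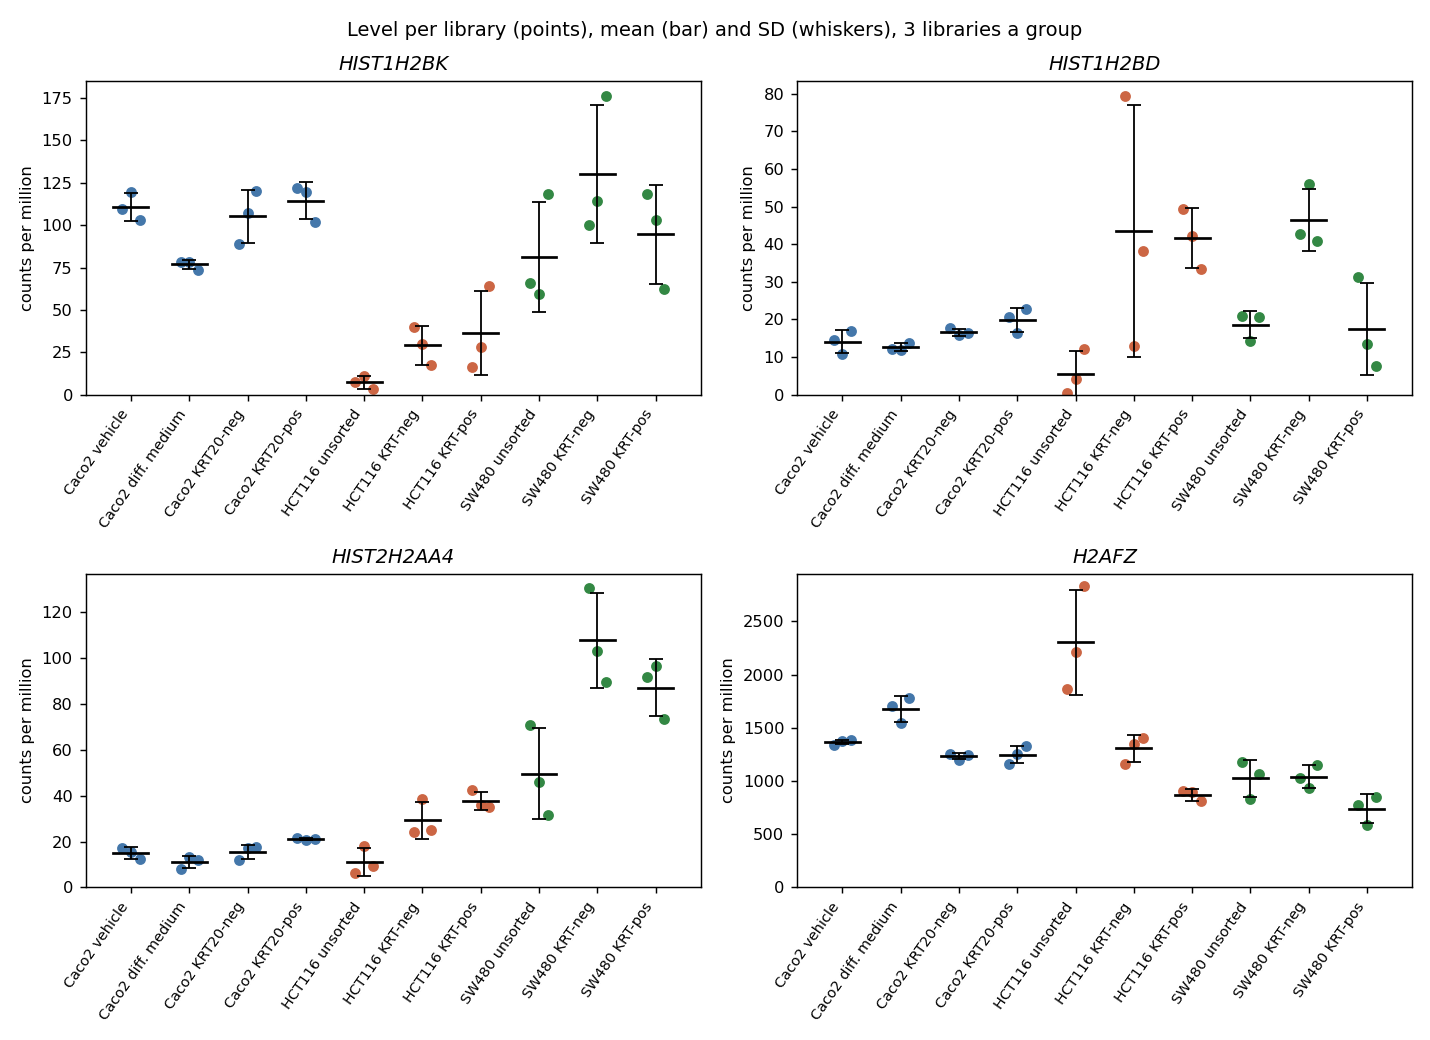
CPM of HIST1H2BK, HIST1H2BD, HIST2H2AA4 and the variant H2AFZ in each library (points), with the group mean (bar) and SD (whiskers), n = 3 a group. HIST1H2BK is lowest among Caco2 groups in differentiation medium, HIST1H2BD and HIST2H2AA4 are lower in HCT116 unsorted than sorted libraries, and H2AFZ is higher there.

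The H2A genes of the chromosome 6 cluster differed from each other in Caco2. HIST1H2AI had 13.8, 16.8 and 14.3 CPM with vehicle, 9.70, 10.8 and 9.62 CPM in KRT20-negative and 7.95, 10.6 and 9.43 CPM in KRT20-positive cells, so that both fractions lay below vehicle. It fell by 0.58 (edgeR adjusted p = 0.00817) and 0.68 log2 units (edgeR adjusted p = 0.00265). HIST1H2AJ went from 16.3 CPM to 10.7 in KRT20-positive cells (log2 -0.61, SE 0.19, edgeR adjusted p = 0.014), a call lost without KRT20-positive replicate 1 (0.0704) or 3 (0.0753). HIST1H2AB was at 2.58, 2.82 and 3.68 CPM with vehicle and 0.354, 0.461 and 0.774 CPM in differentiation medium, where it fell by 2.48 log2 units (SE 0.47, edgeR adjusted p = 0.000518). It was 1.498 CPM in KRT20-negative cells, between the others, and its call against vehicle there (log2 -0.99, edgeR adjusted p = 0.0498) was lost in 12 of 12 fits without 1 library. Against differentiation medium it was called higher there (log2 1.48, SE 0.50, edgeR adjusted p = 0.0228), and fits without 1 library were not recorded for this call. HIST1H2AE had 2.46 CPM with vehicle, 3.46 in KRT20-negative and 3.60 in KRT20-positive cells and was not called (edgeR adjusted p = 0.234 and 0.185).

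Of the linker histone genes of the H1 family, whose products bind DNA between nucleosomes, HIST1H1C was lower both with the medium and in the hairpin fractions of Caco2. HIST1H1C had 134, 139 and 129 CPM with vehicle, 107, 104 and 98.4 in differentiation medium, 94.8, 104 and 94.8 in KRT20-negative and 107, 113 and 100 in KRT20-positive cells. The vehicle libraries were above all others, and HIST1H1C fell by 0.37 (edgeR adjusted p = 0.0015), 0.45 (edgeR adjusted p = 9.19e-05) and 0.33 log2 units (edgeR adjusted p = 0.00221). For the last of these calls, in KRT20-positive cells, fits without 1 library were not recorded. The fractions overlapped the medium (log2 -0.08 and 0.05, edgeR adjusted p = 0.469 and 0.7). HIST1H1E fell from 12.7 CPM with vehicle to 6.94 in KRT20-negative cells (log2 -0.85, SE 0.21, edgeR adjusted p = 0.00283), and HIST1H1B from 15.95 to 10.5 CPM (log2 -0.61, SE 0.18, edgeR adjusted p = 0.0113, and 0.055 without vehicle replicate 1). HIST1H1D fell from 12.04 CPM in differentiation medium to 7.81 in KRT20-negative cells (log2 -0.63, SE 0.18, edgeR adjusted p = 0.00847). In KRT20-positive cells against vehicle HIST1H1E and HIST1H1B were called lower too (edgeR adjusted p = 0.0175 and 0.014), and each call was lost without 2 of the 12 libraries, KRT20-positive replicate 1 or vehicle replicate 3 for HIST1H1E (up to 0.158) and vehicle replicate 1 or KRT20-positive replicate 3 for HIST1H1B (up to 0.102). HIST1H1B and HIST1H1D had under 0.3 CPM in each HCT116 library. HIST1H1C was not called in HCT116 or SW480.

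A few HIST genes were higher in Caco2 hairpin cells at low levels. HIST1H4J, an H4 gene with a stem-loop and a signal in its short transcript, had 2.10 CPM with vehicle, 4.32 in KRT20-negative and 4.13 in KRT20-positive cells (log2 1.03 and 0.96, edgeR adjusted p = 0.0242 and 0.0384). These calls were lost in 3 fits (without vehicle replicate 1 or 3 or KRT20-negative replicate 3) and 4 fits (without vehicle replicate 1 or 3 or KRT20-positive replicate 2 or 3) of 12, with edgeR adjusted p up to 0.196. HIST1H3D, an H3 gene whose last 75 bases also occur in AL031777.3, rose from 1.66 CPM in differentiation medium to 3.60 in KRT20-positive cells (log2 1.08, SE 0.35, edgeR adjusted p = 0.0191), and was lost without differentiation medium replicate 2 (0.0858) or 3 (0.0739) or KRT20-positive replicate 3 (0.0801).

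The HIST genes called in a hairpin fraction against scramble or unsorted cells in any line were sorted by direction. The 7 called higher only were HIST1H2BD, HIST1H2BK, HIST1H3D, HIST1H4J, HIST2H2AA3, HIST2H2AA4 and HIST2H2BE, and 5 of them had both an annotated stem-loop and a signal near the transcript end. Of these, HIST1H4J has its signal before the stem-loop and not downstream of it. HIST2H2AA3 and HIST2H2AA4 are copies whose tags cannot be assigned with certainty. Among all 32 HIST genes tested in any line, 18 had a stem-loop and 14 a signal. The 9 called lower only were HIST1H1B, HIST1H1C, HIST1H1D, HIST1H1E, HIST1H2AI, HIST1H2AJ, HIST1H2BC, HIST1H2BF and HIST1H4C, of which 3 had a stem-loop and 1 a signal. Of the 15 tested genes never called in these comparisons, 10 had a stem-loop and 8 a signal, and HIST1H2AB was called in both directions. This grouping was made after the values were seen, many HIST transcripts are annotated by their coding part alone, and the counts were not tested.

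Variant genes moved apart from each other. H2AFX encodes the H2A variant that is phosphorylated at DNA breaks and makes both a stem-loop and a polyadenylated message. In Caco2 its libraries had 150, 189 and 148 CPM with vehicle, 131, 138 and 125 in differentiation medium, 97.9, 114 and 106 in KRT20-negative and 88.0, 96.1 and 83.7 in KRT20-positive cells. No neighbouring groups in this order overlapped. It fell against vehicle by 0.62 in KRT20-negative (SE 0.09, edgeR adjusted p = 1.63e-05) and by 0.86 log2 units in KRT20-positive cells (SE 0.10, edgeR adjusted p = 1.41e-07), both kept without any 1 library. The fall with the medium was 0.31 (edgeR adjusted p = 0.0228, and 0.0661, 0.104 and 0.202 without differentiation medium replicate 1 or 3 or vehicle replicate 2).

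In SW480 H2AFX had 168, 176 and 191 CPM unsorted, 87.4, 66.3 and 38.9 in KRT-negative and 61.3, 40.7 and 34.4 in KRT-positive libraries, with the unsorted libraries far above the rest. The KRT-positive fall (log2 -1.97, SE 0.36, edgeR adjusted p = 0.00787) held without any 1 library. The KRT-negative fall (log2 -1.47, SE 0.35, edgeR adjusted p = 0.0457) was lost without any 1 of the 3 KRT-negative or 3 unsorted libraries (edgeR adjusted p = 0.0588 to 0.193). In HCT116 H2AFX had 82.9, 114 and 77.2 CPM unsorted against 35.3 to 51.8 in KRT-negative and 35.8 to 54.8 in KRT-positive libraries. There was no overlap, and neither fraction was called (log2 -1.07 and -1.02, edgeR adjusted p = 0.0925 and 0.0776).

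H2AFJ, an H2A variant known from luminal epithelia and from senescent cells, went the other way. Its Caco2 libraries had 24.0, 25.2 and 27.3 CPM with vehicle, 31.4, 35.2 and 30.7 in differentiation medium, 38.7, 38.2 and 43.0 in KRT20-negative and 56.1, 55.1 and 48.7 in KRT20-positive cells. The 4 groups did not overlap. H2AFJ rose against vehicle by 0.65 log2 units in KRT20-negative (SE 0.11, edgeR adjusted p = 4.86e-05) and by 1.07 in KRT20-positive cells (SE 0.11, edgeR adjusted p = 3.34e-08). It was the histone gene called between the Caco2 fractions (log2 0.41, SE 0.10, edgeR adjusted p = 0.0211), a call lost without replicate 1 or 2 of either fraction (edgeR adjusted p = 0.0616 to 0.119). Its rise with the medium was 0.35 (edgeR adjusted p = 0.0291), lost without vehicle replicate 1 or 2 or differentiation medium replicate 2 (up to 0.123).

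In SW480 H2AFJ had 55.8, 52.3 and 56.6 CPM unsorted, 197, 120 and 184 in KRT-negative and 240, 135 and 159 in KRT-positive libraries, with no overlap. Both rises were called (log2 1.61, SE 0.30, edgeR adjusted p = 0.0112, and log2 1.70, SE 0.30, edgeR adjusted p = 0.00673). The KRT-negative call was lost without KRT-negative replicate 1 (0.0588) or 3 (0.0603) or unsorted replicate 3 (0.0527). Without the library labelled KRT-negative replicate 1, whose SETDB1 level was above the unsorted ones, the KRT-negative values were 1.48 for H2AFJ and -1.75 for H2AFX (edgeR adjusted p = 0.0588 for both). In HCT116 the unsorted libraries (0.488, 6.03 and 9.60 CPM) were below the KRT-negative (14.4 to 28.95) and KRT-positive libraries (20.6 to 36.7), and the differences were not called (edgeR adjusted p = 0.263 and 0.0995).

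H2AFZ, an H2A variant at gene starts, was the second most abundant histone gene by its mean. In HCT116 it had 1864, 2209 and 2836 CPM unsorted, 1162, 1347 and 1407 in KRT-negative and 908, 901 and 807 in KRT-positive libraries, without overlap. It fell by 0.82 (SE 0.19, edgeR adjusted p = 0.019) and 1.40 log2 units (SE 0.19, edgeR adjusted p = 0.000284). The KRT-negative call was lost without KRT-negative replicate 1, 2 or 3 or unsorted replicate 2 (edgeR adjusted p up to 0.071), and the KRT-positive call was kept. In Caco2 it went from 1366 CPM with vehicle to 1676 in differentiation medium (log2 0.30, SE 0.07, edgeR adjusted p = 0.00284), and was 1233 and 1249 CPM in the fractions, lower than in the medium (edgeR adjusted p = 1.69e-05 and 3.14e-05) and not called against vehicle (0.094 and 0.143). In SW480 it was 1025 CPM unsorted, 1039 in KRT-negative and 738 in KRT-positive cells, with no call.

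H2AFV, a close relative of H2AFZ, had 280 to 489 CPM unsorted and 151 to 188 CPM in KRT-positive HCT116 cells (log2 -1.06, SE 0.27, edgeR adjusted p = 0.0189, lost without any 1 KRT-positive library or unsorted replicate 3, up to 0.0948). In Caco2 it fell from 706 CPM with vehicle to 555 in KRT20-positive cells (log2 -0.35, SE 0.07, edgeR adjusted p = 0.000439). For this Caco2 call, fits without 1 library were not recorded. H2AFY, a macroH2A gene, was lower in KRT20-negative cells than in differentiation medium (281 against 334 CPM, log2 -0.25, SE 0.08, edgeR adjusted p = 0.0115).

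The replication-independent H3 genes H3F3A and H3F3B encode the same protein. H3F3A was called in some comparisons and H3F3B in none, and their changes were not compared with each other. H3F3A had 241, 171 and 219 CPM in HCT116 unsorted libraries, 102, 115 and 109 in KRT-negative and 81.2, 106 and 83.6 in KRT-positive libraries, with the unsorted ones above all others. The fall was called in KRT-positive cells (log2 -1.22, SE 0.26, edgeR adjusted p = 0.00627, kept without any 1 library) and in KRT-negative cells (log2 -0.95, SE 0.26, edgeR adjusted p = 0.0406). The KRT-negative call was lost in 8 of 9 fits without 1 library, that is all but the fit without KRT-positive replicate 1, with edgeR adjusted p up to 0.152. In Caco2 it was 290 CPM with vehicle and 349 in KRT20-positive cells (log2 0.27, SE 0.08, edgeR adjusted p = 0.00847, and 0.058 without KRT20-positive replicate 1). The KRT20-negative value (log2 0.20, edgeR adjusted p = 0.0469) was lost in 10 of 12 such fits, all but those without vehicle replicate 2 or KRT20-negative replicate 3. H3F3B, the most abundant histone gene with a mean of 1328 CPM, was not called in any of the 12 comparisons. The last 75 bases of an H3F3B transcript also occur in H3F3C, so tags may be divided between them.

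Of the variant linker histones, H1F0, known to build up in cells that stop dividing, was lower in the Caco2 fractions. Its libraries had 198, 239 and 167 CPM with vehicle, 229, 208 and 202 in differentiation medium, 147, 158 and 163 in KRT20-negative and 138, 134 and 126 in KRT20-positive cells. Both fractions were below both scramble groups, with log2 -0.37 and -0.60 against vehicle (edgeR adjusted p = 0.00479 and 3.75e-05) and -0.45 and -0.68 against the medium (edgeR adjusted p = 0.000823 and 9.05e-06). For the KRT20-negative call against vehicle, fits without 1 library were not recorded. The highest group mean of H1F0 was 291 CPM, in HCT116 KRT-negative hairpin cells, thus above unsorted HCT116 cells by mean. H1F0 was not called in HCT116 or SW480. H1FX was 186 CPM in HCT116 unsorted, 86.6 in KRT-negative and 83.8 in KRT-positive cells (log2 -1.10 and -1.15, edgeR adjusted p = 0.0406 and 0.0215). The KRT-negative call was lost in 7 of 9 fits without 1 library (all but those without KRT-negative replicate 2 or KRT-positive replicate 1, up to 0.132). The KRT-positive call was lost without KRT-positive replicate 1 (0.0989) or unsorted replicate 2 (0.0576). In Caco2 H1FX was 108 CPM with vehicle and 141 in the medium (log2 0.38, edgeR adjusted p = 0.0224), lost without vehicle replicate 1 or 3 or differentiation medium replicate 2 (up to 0.187).

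**Figure D4:**
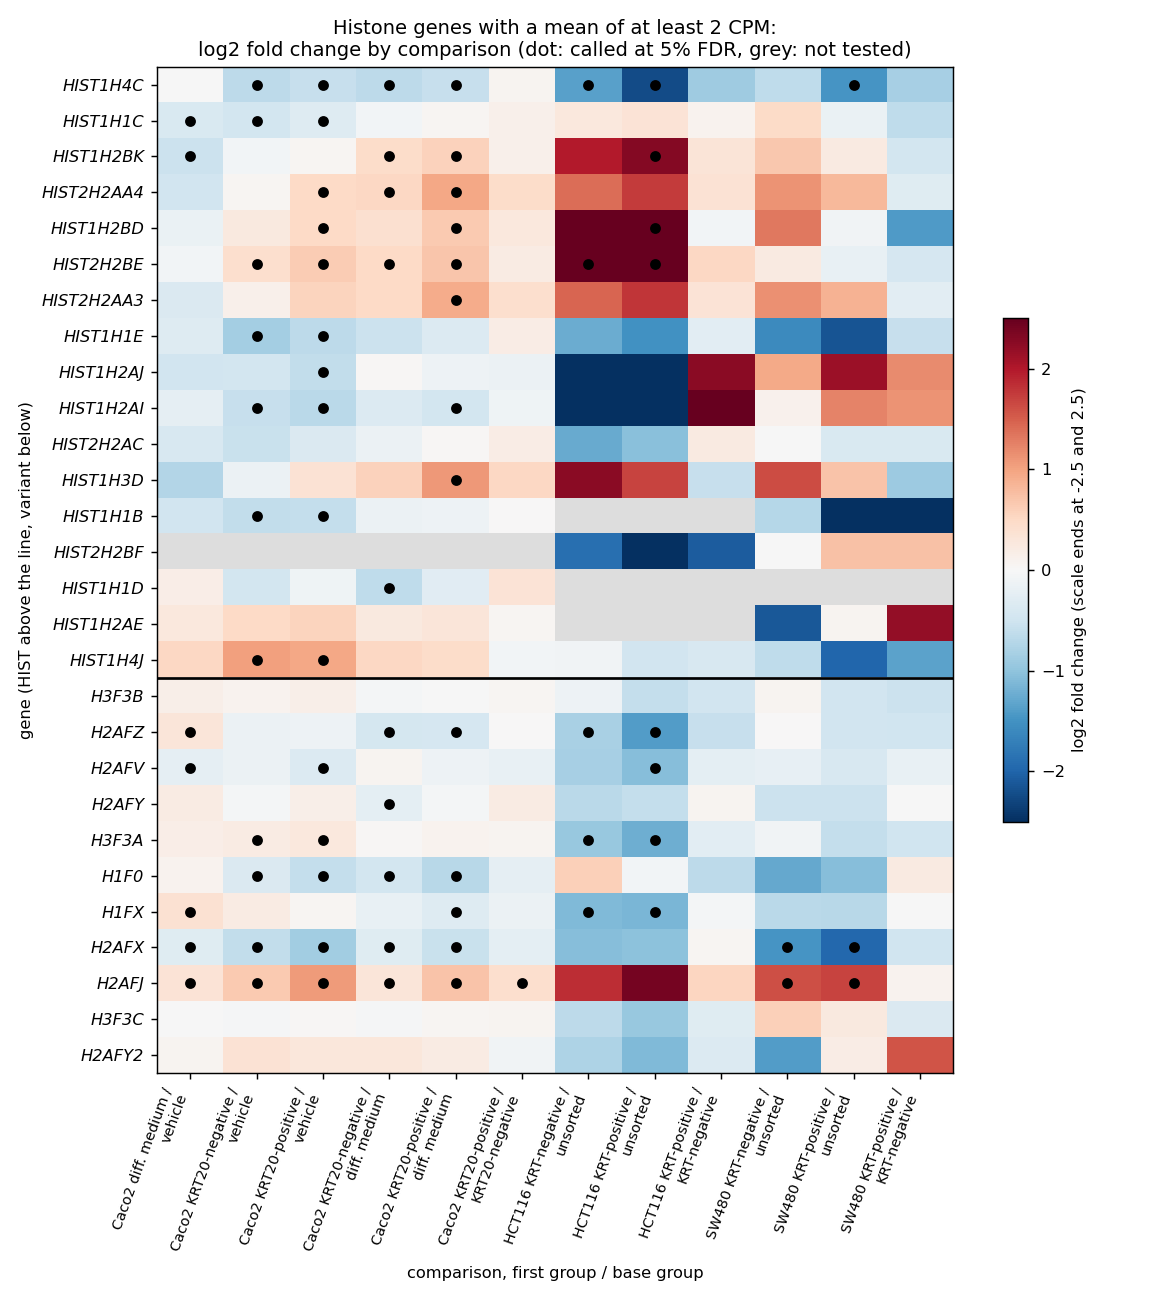
Log2 fold change of the 28 histone genes whose mean reached 2 CPM (rows, HIST above the line, variant below) in the 12 comparisons (columns). A dot marks a call at 5% FDR and grey a gene that was not tested, and colours end at -2.5 and 2.5.

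Calls were also counted over the classes and set beside the share of all genes called. In Caco2 with the medium against vehicle, 0 of 26 HIST genes were called higher and 3 lower, beside 10.4% and 10.5% of all 13968 genes tested, and 7 HIST genes had an unadjusted p under 0.05. The share called lower (11.5%) was near that of all genes. Of 11 variant genes 3 were higher and 2 lower. The median log2 change was -0.34 for HIST, 0.14 for variant and 0 for all genes.

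In KRT20-negative cells against vehicle, 2 HIST genes were higher and 7 lower of 26 (7.69% and 26.9%, beside 18.6% and 17.6% of all genes), and 2 variant genes were higher and 2 lower. The medians were -0.45 and -0.04, against 0.01 for all genes. In KRT20-positive cells against vehicle, 4 HIST genes were higher and 8 lower (15.4% and 30.8%, beside 19.3% and 18.4% of all genes), with 2 variant genes higher and 3 lower and medians of -0.22 and 0.05. Without KRT20-negative replicate 3, the library with fibroblast transcripts, the HIST counts were 1 higher and 7 lower in KRT20-negative cells and 5 higher and 10 lower in KRT20-positive cells, and 0 higher and 7 lower with the medium.

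Against differentiation medium, KRT20-negative cells had 4 HIST genes higher and 2 lower (15.4% and 7.69%, both under the 19.6% and 18.4% of all genes). KRT20-positive cells had 6 higher and 2 lower (23.1% and 7.69%, beside 18.0% and 16.6%). Of the variant genes 1 was higher and 4 lower in each. The medians were -0.11 and 0.04 for HIST and -0.05 and -0.06 for variant genes. Without KRT20-negative replicate 3 the first count became 2 higher and 3 lower. Between the fractions no HIST gene was called by edgeR (3 had an unadjusted p under 0.05, and DESeq2 called 0), and 1 variant gene was higher, beside 2.30% higher and 1.78% lower of all genes.

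In HCT116 KRT-negative cells against unsorted, 1 of 17 HIST genes was called higher and 1 lower (2.82% and 2.44% of 13279 genes), and of 11 variant genes 0 were higher and 3 lower. The medians were -0.59 for HIST and -0.76 for variant genes, against 0.04 for all. In KRT-positive cells 3 HIST genes were higher and 1 lower (4.26% and 5.02% of all genes), and 0 variant genes were higher and 4 lower. The medians were 0.34 and -1.02, against 0.07 for all. A value below 0 was found for 10 of 11 variant genes and 8 of 17 HIST genes. Between the fractions edgeR called 0 genes of either class, with 2 HIST and 3 variant genes at an unadjusted p under 0.05 (0.166% and 0.384% of all genes were called), and DESeq2 called 1 HIST gene.

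In SW480 KRT-negative cells edgeR called 0 of 24 HIST genes, with 5 at an unadjusted p under 0.05 and 1 called by DESeq2, and 1 variant gene each way of 12 (1.36% higher and 0.762% lower of 13252 genes). In KRT-positive cells 0 HIST genes were higher and 1 lower, and 1 variant gene went each way (1.90% and 1.57%). The HIST medians were 0.34 and -0.13, and the variant medians -0.23 and -0.47. Between the fractions edgeR called 0 of either class (0.226% and 0.219% of all genes), with 5 HIST and 3 variant genes at an unadjusted p under 0.05, and DESeq2 called 1 variant gene. In HCT116 and SW480 libraries with opposite GC trends occurred within groups, as replicate 2 of each SW480 group and HCT116 unsorted replicate 3 and KRT-negative replicate 1 stood apart from their groups. With the GC class of a library as a term, the HIST counts became 4 (3 higher) for HCT116 KRT-negative and 2 (1 higher) for KRT-positive cells against unsorted. With that term HIST1H2BD and HIST1H2BK were no longer called in KRT-positive cells (edgeR adjusted p = 0.0714 and 0.0548). Of the 18 named calls in HCT116 and SW480, the other 16 were kept with the term.

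Genes that act on histone messages and proteins were read beside them, from lists set by function. SLBP, which binds the stem-loop, fell in Caco2 from 86.9 CPM with vehicle to 48.0 in KRT20-negative and 49.9 in KRT20-positive cells (log2 -0.86 and -0.80, edgeR adjusted p = 7.13e-07 and 1.84e-06). In HCT116 it fell from 213.7 CPM unsorted to 85.6 in KRT-negative cells (log2 -1.32, SE 0.30, edgeR adjusted p = 0.0155). Of the 20 genes of histone message processing, 2 were higher and 7 lower in KRT20-negative and 1 higher and 6 lower in KRT20-positive cells against vehicle, beside 18.6% and 17.6%, and 19.3% and 18.4%, of all genes. SYMPK, a scaffold of the cleavage complex, was higher in KRT20-negative cells (147 to 224 CPM, log2 0.61, edgeR adjusted p = 4.95e-06). With the medium 1 was higher and 3 lower, beside 10.4% and 10.5% of all genes. In HCT116 1 of 20 was lower in each fraction, beside 2.44% and 5.02% of all genes, and 0 of 20 were called in either SW480 fraction, where edgeR gave NCBP2 the smallest adjusted p in KRT-negative cells (0.0551).

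Of the 24 histone chaperones, which carry histones to DNA, 1 was higher and 10 lower in KRT20-negative and 1 higher and 13 lower in KRT20-positive cells against vehicle, with medians of -0.23 and -0.37. Of all genes, 18.6% were higher and 17.6% lower in the former and 19.3% and 18.4% in the latter. NASP, which holds newly made H3 and H4, fell in KRT20-positive Caco2 cells (417 to 266 CPM, log2 -0.65, edgeR adjusted p = 5.69e-07). It also fell in both HCT116 fractions (666 to 216 and 184 CPM, edgeR adjusted p = 0.000312 and 7.85e-05) and both SW480 fractions (383 to 153 and 159 CPM, edgeR adjusted p = 0.0114 and 0.012). SSRP1 and SUPT16H, the subunits of the FACT complex, fell in both Caco2 fractions against vehicle and in both HCT116 fractions. In all, 4 and 8 of 24 chaperones were lower in HCT116 KRT-negative and KRT-positive cells and 1 and 2 in SW480, with 0 higher, beside 2.44%, 5.02%, 0.762% and 1.57% of all genes called lower.

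Genes of DNA replication and mitosis, the phases in which histones are made and packed, were called lower in most cases in the hairpin fractions of Caco2. Against vehicle, 21 of 32 replication genes and 20 of 20 mitosis genes were lower in Caco2 KRT20-negative cells and 25 of 32 and 19 of 20 in KRT20-positive cells, with 0 higher, beside 17.6% and 18.4% of all genes called lower. CDK1, the kinase that starts mitosis, fell from 380 CPM to 175 and 210 (log2 -1.12 and -0.86, edgeR adjusted p = 7.45e-12 and 6.41e-10). In HCT116, 13 of 32 and 15 of 20 were lower in KRT-negative and 16 and 18 in KRT-positive cells (2.44% and 5.02% of all genes), among them RRM2, a subunit of ribonucleotide reductase (281 CPM unsorted, 49.4 and 49.9 in the fractions). In SW480, 4 of 32 and 2 of 20 were lower in KRT-negative and 8 and 5 in KRT-positive cells (0.762% and 1.57% of all genes). With the medium alone 1 of 32 replication genes was higher and 6 lower, and 5 of 20 mitosis genes went each way. Of all genes 10.4% were higher and 10.5% lower with the medium. In these mixed populations fewer cells in S phase and less histone RNA per cell cannot be told apart.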

How the data were processed

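The 30 libraries were made with the QuantSeq 3′ kit from LEXOGEN, per the labels' protocols. The authors deposited 1 table of raw counts per library, by gene symbol. The submitters' processing notes name hg19, Bowtie2 and edgeR, with versions and counting rules not given in the sources used here. The 1561 lines that repeated 1 of 286 symbols were summed. Each line was fitted with all its groups by edgeR 4.0.16 (R 4.3.3) with quasi-likelihood tests, TMM factors and filterByExpr, and called at 5% FDR (Benjamini-Hochberg) over all genes tested. The 12 comparisons within lines share libraries. The edgeR test was also run on simulated data with known changes. This covered the comparison of KRT20-negative or KRT-negative cells with vehicle or unsorted cells in each line, and its outcome is not given here. Alternatives were DESeq2 1.42.0, other scaling, no filter, only the groups compared, the replicate number as a block, leaving out each library, and a GC term added after the data were seen. Intervals and limits for low counts cover counting error only.

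Named were SETDB1, KRT20 and, by mean CPM, the 8 most abundant HIST and the 4 most abundant variant genes. Histone genes called in a comparison (at most 8 per direction, with 2 CPM or more in the higher of the groups) were also named, plus up to 4 genes per list and comparison. Histone genes and lists were chosen with earlier results of these data known. Transcript features come from GENCODE 29, on GRCh38, a different build from that of the counts, matched by symbol.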

Additional observations from a re-analysis of the deposited data

Results flagged for a closer look

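H3F3C, a gene related to H3F3B, had differences of opposite sign in the KRT-negative fractions of HCT116 and SW480. In HCT116 it had 45.04, 44.6 and 41 CPM in KRT-negative and 92.2, 53.6 and 58.9 CPM in unsorted libraries (log2 -0.65, edgeR adjusted p = 0.515). In SW480 it had 88.4, 98.4 and 114 CPM in KRT-negative and 61.9, 73.8 and 61.9 CPM in unsorted libraries (log2 0.60, edgeR adjusted p = 0.549). H3F3C was the only gene found when 5 pairs of comparisons were searched for histone genes without overlap in both and with opposite signs. The lack of overlap and the opposite signs are thus how it was picked. Neither change was called, and the difference between the lines was not tested.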

How the results depend on the processing

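No value changed direction, and 42 of 76 calls of named genes were kept in every fit without 1 library. Same-numbered libraries of different groups correlated at -0.036 to 0.151 in their deviations from the group means and differently numbered ones at -0.22 to 0.129. Since not every same-number correlation passed 0.1 in any line, numbers were not taken as pairs. By line, all same-number correlations were positive in Caco2 (0.008 to 0.113, other numbers -0.115 to 0.035) and SW480 (0.021 to 0.151, other numbers -0.111 to 0.064). In HCT116 they were of both signs (-0.036 to 0.114). Whether same-numbered libraries shared a batch was not tested. Some libraries of each line correlated best with another number, and replicate 2 of each SW480 group shared a GC trend. With the replicate block, 5 HIST and 8 variant genes were called for differentiation medium against vehicle, 3 variant genes between the Caco2 fractions and 2 HIST genes for HCT116 KRT-positive against unsorted cells. With only the groups compared these were 5, 8, 0 and 2, and 1 variant gene was called for HCT116 KRT-negative cells. DESeq2 called 5 HIST and 6 variant genes in HCT116 KRT-negative and 8 variant genes in KRT-positive against unsorted cells, 1 HIST gene between the HCT116 fractions, 1 HIST gene in SW480 KRT-negative cells and 1 variant gene between the SW480 fractions. With a GC term these were 4 and 5 (HCT116 KRT-negative), 2 HIST (HCT116 KRT-positive), 1 HIST (between HCT116 fractions), 5 variant (SW480 KRT-positive) and 1 variant gene (between SW480 fractions). The summed variant level was 3909 CPM in Caco2 KRT20-negative cells with RLE factors, and with library totals 4403 in differentiation medium, 3938 in KRT20-negative and 3288 in HCT116 KRT-positive cells. The cause of these changes was not tested. The share of all genes called was recorded for the main fit only. Counts of calls under other settings or without 1 library, here and above, therefore have no such share beside them. Whether they moved more than all genes did was not tested.

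Leaving out 1 library at a time gave, in HIST and variant genes called, 3 to 7 and 2 to 7 for the medium, 5 to 11 and 3 to 5 for KRT20-negative and 8 to 15 and 4 to 7 for KRT20-positive cells against vehicle. Against differentiation medium the ranges were 3 to 8 and 4 to 5, and 6 to 8 and 4 to 5, and between the Caco2 fractions 0 and 0 to 1. Against unsorted cells they were 2 to 3 and 0 to 3, and 2 to 4 and 2 to 4, in HCT116, and 0 and 0 to 3, and 1 and 2 to 3, in SW480, for KRT-negative and KRT-positive cells. Between fractions they were 0 in HCT116 and SW480. Depth limits the 50 HIST genes whose mean stayed under 1 CPM, but detection also differed by line. Each Caco2 library had counts for at least 38 HIST genes. No HCT116 or SW480 library had more than 34, and SW480 KRT-positive replicate 3, with 10036179 counts in all, had 14. Replicates also scattered more in these lines. Their Spearman correlation within a group was at most 0.926, against at least 0.967 within Caco2 groups. Intervals for counting error do not cover this scatter, and its cause was not tested.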
